A study of Mus musculus with 20 samples.

Results

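Young adult MIR offspring were compared with control offspring after a vehicle injection, over 10 of the 20 cortex RNA libraries of the study. MIR stands for maternal inflammatory response. MIR vehicle mice (5 libraries) were born to dams injected intraperitoneally on day 9 of gestation with 0.008 mg/kg lipopolysaccharide (LPS), a component of bacterial cell walls. Control vehicle mice (5 libraries) were born to dams given saline. The mice of both groups were outbred CD-1 animals of 60 to 90 days after birth, and both received DMSO vehicle 2 hours before euthanasia. The remaining 10 libraries came from MIR and control offspring given rapamycin, an inhibitor of the kinase mTOR, in place of vehicle. They entered the fit to estimate the spread, and they form a separate comparison of MIR with control offspring. All 48795 genes in the count table were considered, of which 17313 had enough counts to be tested. The methods describe the tissue as microdissected sensory-motor cortex, while the sample labels say brain. The labels do not tell which mice were littermates. The paper's supplement lists fewer than 5 litters of each kind for sequencing, so some mice of a group shared a dam. The p-values therefore measure the spread between mice, not between the injected dams.

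Inflammation in a pregnant dam can reach the fetus through cytokines without infection of the fetus itself, and it is widely used in rodents to model a prenatal risk factor for autism and related conditions. The adult cortex holds mainly neurons that no longer divide, together with astrocytes, oligodendrocytes and their precursors, microglia, which are the resident immune cells, and the endothelial cells of the vessels. Transcripts of the mitotic machinery are made mostly in cells that pass through the cell cycle, so in this tissue they are scarce. In whole tissue, fewer cells of a type and less RNA per cell of that type cannot be told apart.

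Libraries held 17.8 to 21.9 M counts in MIR vehicle mice and 20.7 to 23.6 M in control vehicle mice, and gene levels below are counts scaled to library size (CPM). Xist, the RNA that coats the inactive X chromosome, stood between 499 and 1633 CPM in the 20 libraries while Y-linked genes had 2 counts in total, the pattern of female mice, although the methods state that both sexes were used. Control vehicle 1, 2 and 3 carried markers of other brain regions. Slc17a7, the vesicular glutamate transporter of cortical excitatory neurons, stood at 1159 to 1344 CPM in the MIR vehicle libraries, against 12.3, 656, 1154, 1182 and 1164 CPM in control vehicle 1 to 5. Tbr1, a transcription factor of deep-layer cortical neurons, stood at 158 to 185 CPM in the MIR vehicle libraries, against 8.97, 54.3, 169, 191 and 194 CPM in control vehicle 1 to 5. Both cortical markers were thus far lower in control vehicle 1 and 2 than in the other libraries. Drd2, a striatal dopamine receptor gene, stood at 0.193 to 3.29 CPM in MIR vehicle libraries, against 115 CPM in control vehicle 1. Cbln3, a gene of cerebellar granule cells, stood at 0.231 to 1.18 CPM in MIR vehicle libraries, against 841 CPM in control vehicle 2, and Ttr, the transthyretin gene of the choroid plexus, at 0 to 2.02 CPM in MIR vehicle libraries, against 1141 CPM in control vehicle 3. Summed over the markers of striatum (12 genes), cerebellum (11) and choroid plexus (8), the highest MIR vehicle libraries held 301, 98.6 and 261 CPM, against 4658, 2903 and 2101 CPM in control vehicle 1, 2 and 3 in that order. Log2 fold changes and list medians are therefore given also against control vehicle 4 and 5 alone for most of the genes and lists described.

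**Figure D1:**
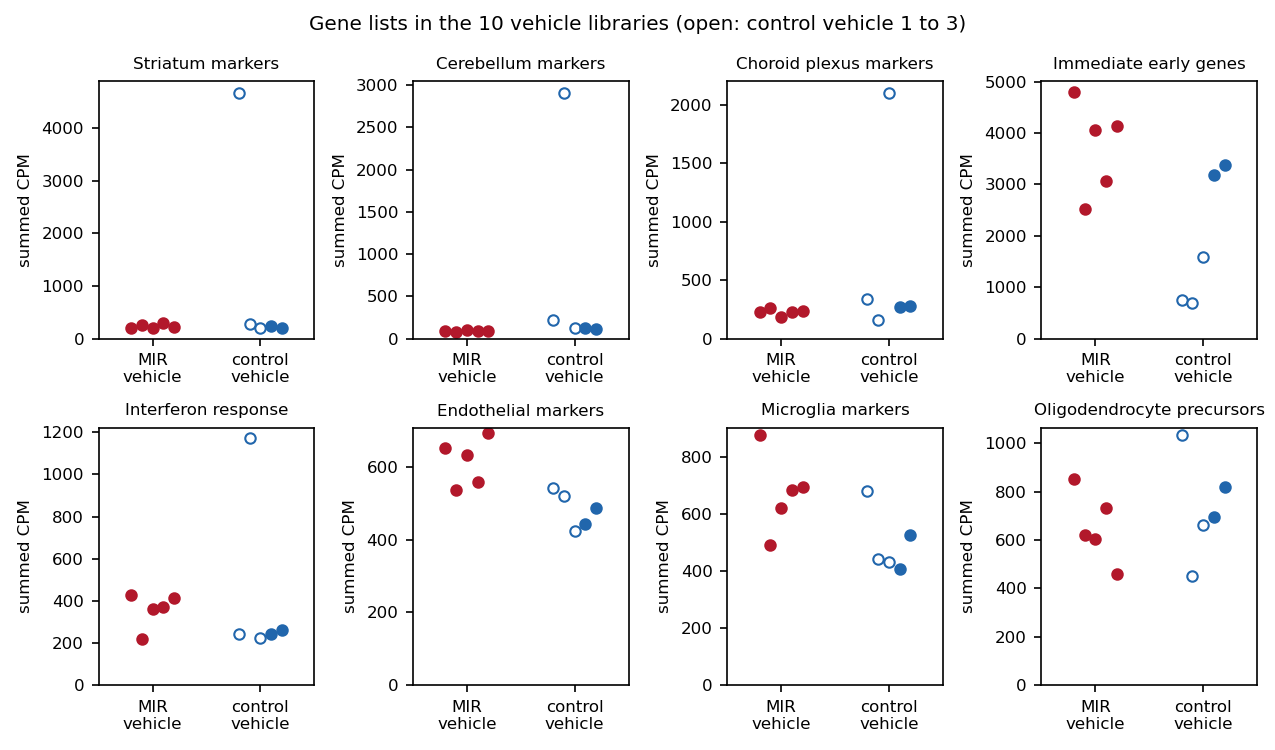
Summed CPM of the tested genes of each list (y axis, from 0) in each MIR vehicle (red, left) and control vehicle (blue, right) library, with control vehicle 1 to 3 as open circles. Striatum, cerebellum and choroid plexus markers each peak in a different open circle, interferon genes peak at 1173 CPM in control vehicle 2, and the endothelial sums of MIR vehicle libraries run over 536 to 694 CPM.

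In MIR vehicle mice 12 genes were called higher than in control vehicle mice, 0.0693% of those tested, and 5 genes lower, 0.0289% (quasi-likelihood test of edgeR, p adjusted after Benjamini and Hochberg). A call required an adjusted p under 0.05 and an absolute log2 fold change over 0.5. The adjusted p of the 17 genes lay between 0.0457 and 0.0479, close below the threshold. At an unadjusted p under 0.05, 1281 genes were higher, 7.40% of those tested, and 1545 lower, 8.92%. Counts of list members below are to be read beside these shares. The genes called higher were Cd93, Ccnb2, Nos3, Abcc3, Plaur, Tmem198, Mki67, Ckap2l, Ccna2, Prc1, Col4a1 and Top2a, and those called lower were Clic6, Mab21l1, Arhgef16, Hif3a and Mrvi1. For 13 of the 17 the libraries of the groups did not overlap. Over all genes tested, all 5 MIR vehicle libraries lay above all 5 control vehicle libraries in 279 (1.61%) and below them in 240 (1.39%). Against control vehicle 4 and 5 alone, 1314 genes (7.59%) lay above and 1331 (7.69%) below in all 5 MIR vehicle libraries.

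Without control vehicle 1, 2 and 3 edgeR called 0 genes (1168 had an unadjusted p under 0.05), with adjusted p of 0.436 to 0.577 for the 17. The direction was the same in all 17, and 15 of them still had an absolute log2 fold change over 0.5. The reduced fit reuses libraries by which the 17 were called, so this agreement is not independent. For the 13 whose groups did not overlap, the direction could hardly change. The count of calls was also 0 when any 1 of MIR vehicle 1, 3, 4 or 5 or control vehicle 3 was left out. Leaving out MIR vehicle 2 gave 67 calls, and leaving out control vehicle 1, 4 or 5 gave 7, 151 or 219.

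**Figure D2:**
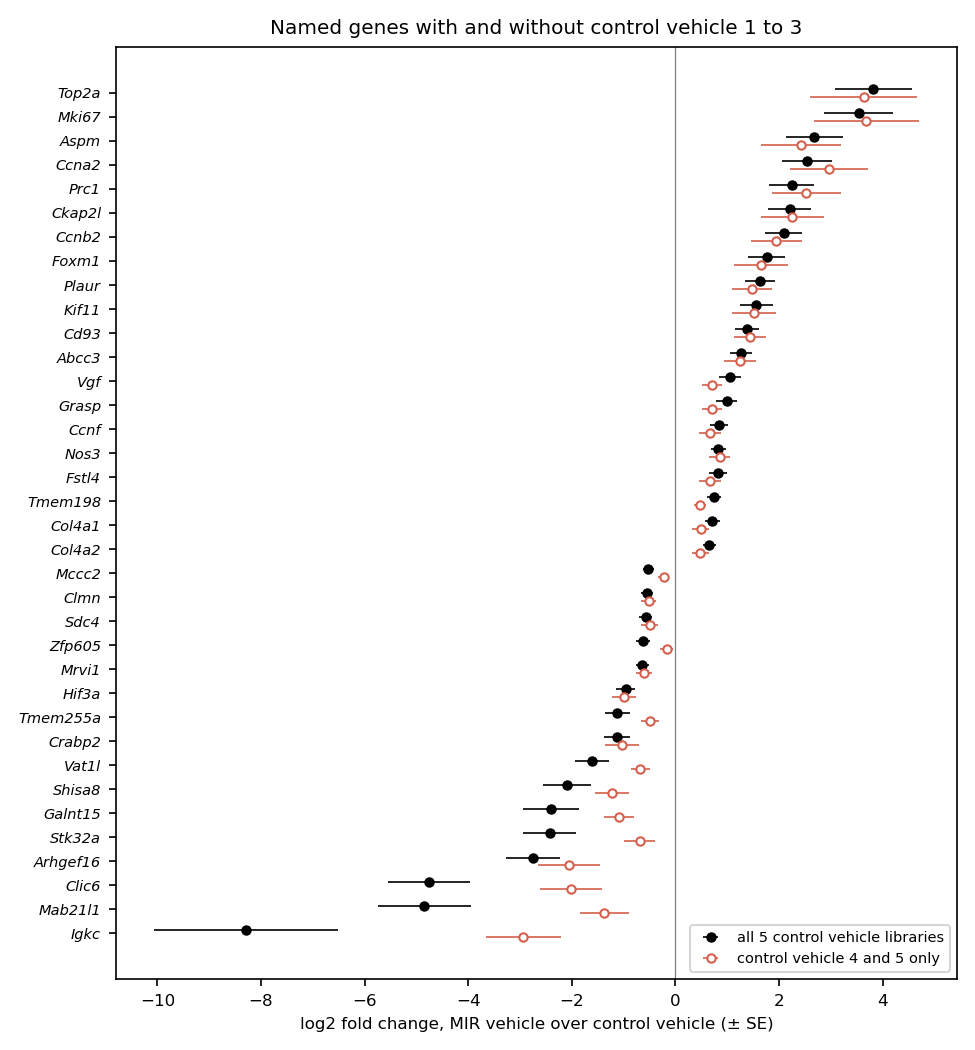
Log2 fold change of MIR vehicle over control vehicle with its SE (x axis) for the 36 genes named by rule (rows), with all 5 control vehicle libraries and with control vehicle 4 and 5 alone. Top2a has similar values in both fits (3.82 and 3.63), whereas Mab21l1 (-4.85 and -1.37) and Clic6 (-4.75 and -2.01) move toward 0.

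Genes of mitosis made up 6 of the 12 genes called higher. Of 40 tested genes in a list of the mitotic machinery, these 6 rose, 0 fell and 34 did not pass the adjusted test. This list too was written with earlier results of these data known, so its counts are no independent support. Without the adjustment, 38 of the 40 were higher at p under 0.05 and 0 lower, against 7.40% and 8.92% of all genes tested. The median log2 fold change of the 40 was 2.06, against -0.018 over all genes tested. With control vehicle 4 and 5 alone it was 1.95, against 0.0081 over all genes, with 33 of 40 higher at an unadjusted p under 0.05. In that fit 1168 of all 17313 genes tested had such a p, both directions together. All 5 MIR vehicle libraries lay above all controls in 12 of the 40, against 1.61% of all genes tested.

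Ccnb2 (chr9:70407692-70421547, minus strand, mm10), which encodes cyclin B2, a partner of Cdk1 at entry into mitosis, had 3.12, 0.878, 2.4, 2.75 and 2.5 CPM in MIR vehicle 1 to 5, against 0.305, 0.48, 0.73, 0.641 and 0.56 CPM in control vehicle 1 to 5. The groups did not overlap, though MIR vehicle 2 lay close to the controls. Ccnb2 rose by a log2 fold change of 2.09 ± 0.36 (SE, n = 5 each, edgeR adjusted p = 0.0457), and the value against control vehicle 4 and 5 was 1.95 ± 0.49.

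Prc1 (chr7:80294450-80316259, plus strand) encodes a protein that bundles microtubules in the middle of the dividing spindle. It had 3.36, 0.829, 4.08, 3.24 and 2.74 CPM in MIR vehicle libraries, against 0.479, 0.742, 0.772, 0.549 and 0.431 CPM in control vehicle libraries, again with no overlap. Prc1 rose by 2.25 ± 0.43 on the log2 scale (SE, edgeR adjusted p = 0.0479), or 2.53 ± 0.66 against control vehicle 4 and 5.

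Mki67 (chr7:135689784-135716361, minus strand), which encodes Ki-67, a widely used marker of proliferation, had 17.6, 0.439, 14.5, 19 and 10.01 CPM in MIR vehicle libraries, against 0.915, 1.53, 0.944, 0.686 and 1.21 CPM in control vehicle libraries. Top2a (chr11:98992943-99024189, minus strand), the topoisomerase that disentangles replicated DNA, had 15, 0.293, 13.5, 15.5 and 6.83 CPM in MIR vehicle libraries, against 1.002, 0.0873, 0.858, 0.641 and 0.991 CPM in control vehicle libraries. For both genes 4 MIR vehicle libraries stood well above every control, and MIR vehicle 2 lay below or among them. The log2 fold change was 3.54 ± 0.66 for Mki67 and 3.82 ± 0.74 for Top2a (SE, edgeR adjusted p = 0.0479 for each), or 3.69 ± 1.01 and 3.63 ± 1.04 against control vehicle 4 and 5.

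Ccna2 (chr3:36564865-36572150, minus strand), the gene of cyclin A2, which acts from S phase to mitosis, had 4.74, 0.78, 4.94, 5.94 and 2.89 CPM in MIR vehicle libraries, against 0.915, 0.655, 0.73, 0.549 and 0.431 CPM in control vehicle libraries. Ckap2l (chr2:129268210-129297212, minus strand), which encodes a protein of the mitotic spindle, had 3.82, 0.78, 3.45, 3.34 and 2.02 CPM in MIR vehicle libraries, against 0.348, 0.611, 0.815, 0.549 and 0.56 CPM in control vehicle libraries. In both genes MIR vehicle 2 alone overlapped the controls, through control vehicle 1 for Ccna2 and control vehicle 3 for Ckap2l. The log2 fold changes were 2.54 ± 0.49 and 2.20 ± 0.42 (SE, edgeR adjusted p = 0.0479 for each), or 2.96 and 2.26 against control vehicle 4 and 5. MIR vehicle 2 was the lowest MIR vehicle library in 35 of the 40 mitosis genes, and the median of the list without it was 2.27. Summed over the list, MIR vehicle 1 to 5 held 212, 97.8, 190, 239 and 159 CPM. Control vehicle 1 to 5 held 164, 80.1, 116, 106 and 110 CPM, so the sums of the groups overlapped. The sum of MIR vehicle 2 lay among those of the controls.

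Further cell cycle genes, of which Ccnf is not on the mitosis list, separated the groups without passing the adjusted test (edgeR adjusted p = 0.0557 for each). Foxm1, a forkhead factor that drives genes of the G2 and M phases, had 3.53, 1.27, 3.31, 3.24 and 1.97 CPM in MIR vehicle libraries, against 0.697, 0.829, 0.686, 0.732 and 0.947 CPM in control vehicle libraries. Kif11, the motor that pushes the spindle poles apart, had a log2 fold change of 1.56 ± 0.32, and Aspm, a spindle pole protein known for its role in cortical progenitors, one of 2.68 ± 0.55 (SE). Against control vehicle 4 and 5 alone the values were 1.65 for Foxm1, 1.52 for Kif11 and 2.42 for Aspm. Ccnf, whose product cyclin F selects substrates for a ubiquitin ligase, had 5.71 to 8.93 CPM in MIR vehicle libraries, against 2.83 to 4.85 CPM in control vehicle libraries.

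The promoters of called mitosis genes are shown because many cell cycle genes are known to share a pair of short elements near their start, the CCAAT box, bound by the factor NF-Y, and TTTGAA or TTCGAA, known as the cell cycle genes homology region. Sequences are RefSeq windows of GRCm38.p6 (mm10) from 150 bases before to 20 bases after the start, 5′ to 3′ on the strand of the gene. The promoter table held 5 of the 6 called genes and 34 of the 40 in the list. Capitals mark the elements, which were searched on both strands and so also appear as ATTGG or TTCAAA.
Ccnb2, chr9:70421535-70421704, minus strand: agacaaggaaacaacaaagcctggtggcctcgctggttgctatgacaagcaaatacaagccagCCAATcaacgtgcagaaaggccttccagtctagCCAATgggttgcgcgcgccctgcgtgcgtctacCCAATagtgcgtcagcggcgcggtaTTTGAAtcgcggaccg
Prc1, chr7:80294301-80294470, plus strand: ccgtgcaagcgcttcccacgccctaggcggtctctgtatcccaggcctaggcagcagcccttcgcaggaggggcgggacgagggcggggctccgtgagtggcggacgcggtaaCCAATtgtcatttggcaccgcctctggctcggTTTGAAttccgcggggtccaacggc
Top2a, chr11:99024170-99024339, minus strand: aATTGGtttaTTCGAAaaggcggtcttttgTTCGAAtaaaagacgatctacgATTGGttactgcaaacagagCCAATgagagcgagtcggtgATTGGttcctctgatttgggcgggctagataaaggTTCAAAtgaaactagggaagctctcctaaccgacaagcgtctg
Mki67, chr7:135716360-135716529, minus strand: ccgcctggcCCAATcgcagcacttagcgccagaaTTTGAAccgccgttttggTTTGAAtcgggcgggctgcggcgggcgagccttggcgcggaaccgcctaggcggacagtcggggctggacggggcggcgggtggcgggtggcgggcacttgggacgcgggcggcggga
Ckap2l, chr2:129297193-129297362, minus strand: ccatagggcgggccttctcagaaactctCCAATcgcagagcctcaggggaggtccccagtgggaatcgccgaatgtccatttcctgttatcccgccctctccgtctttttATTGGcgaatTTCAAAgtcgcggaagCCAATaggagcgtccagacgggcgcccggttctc

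Each of these windows held both elements, with 3 CCAAT boxes in Ccnb2 and 4 in Top2a. Of the 34 mitosis windows, 25 (73.5%) held a CCAAT box, 20 (58.8%) held TTTGAA or TTCGAA and 18 (52.9%) held both. Over all 32851 windows of this length the shares were 26.3%, 10.7% and 2.92%, and over 1 window for each of 11597 tested genes they were 28.8%, 6.42% and 2.12%. In the 32 windows of a DNA replication list the shares were 53.1%, 12.5% and 6.25%. These are matches of letters and do not show binding in these mice.

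Genes that act in DNA replication gave lower values than those of mitosis. Of 38 tested, 0 were called, 7 were higher and 2 lower at an unadjusted p under 0.05, and the median log2 fold change was -0.066, or 0.16 against control vehicle 4 and 5. Mcm4, a subunit of the replicative helicase, had a log2 fold change of -0.32 ± 0.12 (SE, edgeR adjusted p = 0.193), and the cyclin genes Ccne1 and Ccne2, which act at entry into S phase, had values of 0.35 and -0.67. Against control vehicle 4 and 5 these genes had -0.18, 0.16 and -0.60 in the same order, and Mcm4 had -0.0051 with covariates for the marker levels of the 3 other regions. Rrm2, a subunit of the enzyme that makes deoxynucleotides, stood at 2.66, 0.878, 2.31, 2.9 and 0.866 CPM in MIR vehicle libraries, against 0.61, 0.655, 1.12, 1.51 and 1.08 CPM in control vehicle libraries, so the groups overlapped. Summed over the list, MIR vehicle libraries held 169 to 198 CPM, against 228 CPM in control vehicle 2 and 173 to 178 CPM in the other control vehicle libraries.

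**Figure D3:**
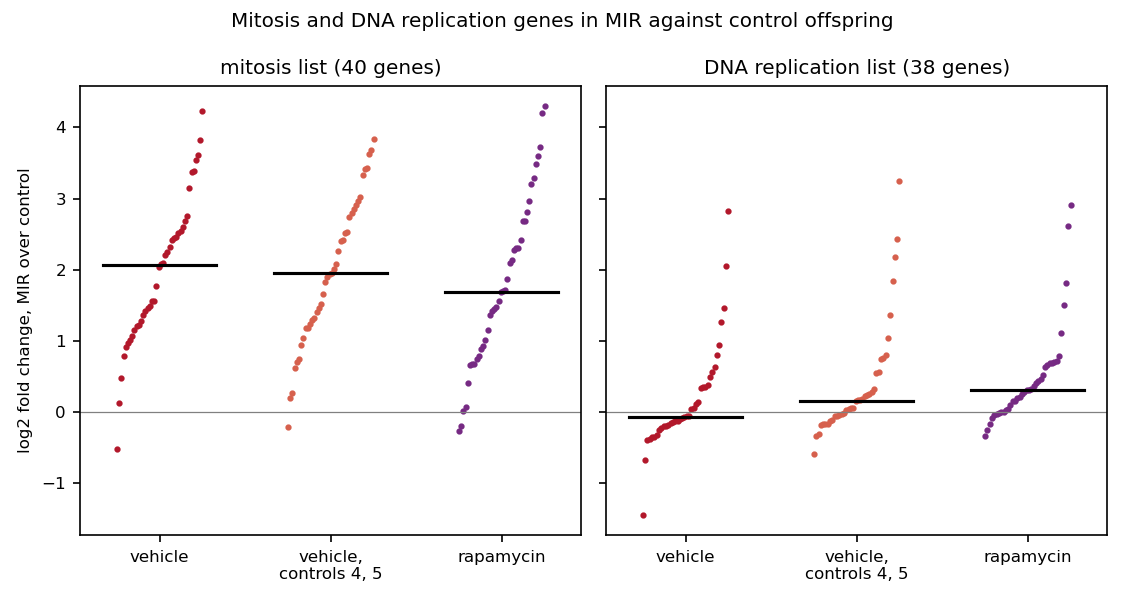
Log2 fold change of MIR over control offspring (y axis) for each tested gene of the mitosis list (40 genes) and the DNA replication list (38 genes), with the median as a black line. Columns are the vehicle comparison, the vehicle comparison against control vehicle 4 and 5 alone, and the rapamycin comparison, with medians of 2.06, 1.95 and 1.69 for mitosis and of -0.066, 0.16 and 0.31 for DNA replication.

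A list of genes of endothelial activation and vessel growth also held genes called higher. It was written with earlier results of these data known, so its count of calls is no independent support. Of 31 tested, 4 rose (Cd93, Nos3, Abcc3 and Plaur), 0 fell and 27 did not pass. At an unadjusted p under 0.05, 16 were higher and 1 lower, and the median log2 fold change was 0.30, or 0.45 against control vehicle 4 and 5. Each of the called genes separated the groups.

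Cd93 (chr2:148436640-148443563, minus strand) encodes a lectin-like receptor of endothelial and myeloid cells. It had 14.2, 8.09, 20.9, 13.4 and 15.9 CPM in MIR vehicle libraries, against 5.18, 7.25, 4.63, 4.99 and 5.73 CPM in control vehicle libraries. Cd93 rose by 1.38 ± 0.22 on the log2 scale (SE, edgeR adjusted p = 0.0457), and against control vehicle 4 and 5 the value was 1.44 ± 0.31.

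Nos3 (chr5:24364810-24384474, plus strand), the endothelial nitric oxide synthase, had 12.6, 8.34, 11.5, 12.7 and 16.2 CPM in MIR vehicle libraries, against 8.01, 6.46, 6.44, 6.77 and 6.8 CPM in control vehicle libraries. The lowest MIR vehicle library lay just above control vehicle 1, and the log2 fold change was 0.83 ± 0.14 (SE, edgeR adjusted p = 0.0457), or 0.85 ± 0.20 against control vehicle 4 and 5. Abcc3 (chr11:94343295-94392997, minus strand), an efflux transporter of organic anions, had 4.69, 2.73, 4.85, 5.6 and 5.54 CPM in MIR vehicle libraries, against 1.92, 2.31, 1.54, 1.88 and 2.07 CPM in control vehicle libraries. Abcc3 rose by 1.27 ± 0.22 on the log2 scale (SE, edgeR adjusted p = 0.0457), or 1.24 ± 0.30 against control vehicle 4 and 5.

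Plaur (chr7:24462484-24475968, plus strand) encodes the receptor of urokinase, which localises the breakdown of matrix at the cell surface. It had 1.33, 1.22, 1.95, 0.933 and 1.68 CPM in MIR vehicle libraries, against 0.61, 0.393, 0.258, 0.503 and 0.517 CPM in control vehicle libraries. Plaur rose by 1.63 ± 0.29 on the log2 scale (SE, edgeR adjusted p = 0.0478), or 1.47 ± 0.39 against control vehicle 4 and 5.

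**Figure D4:**
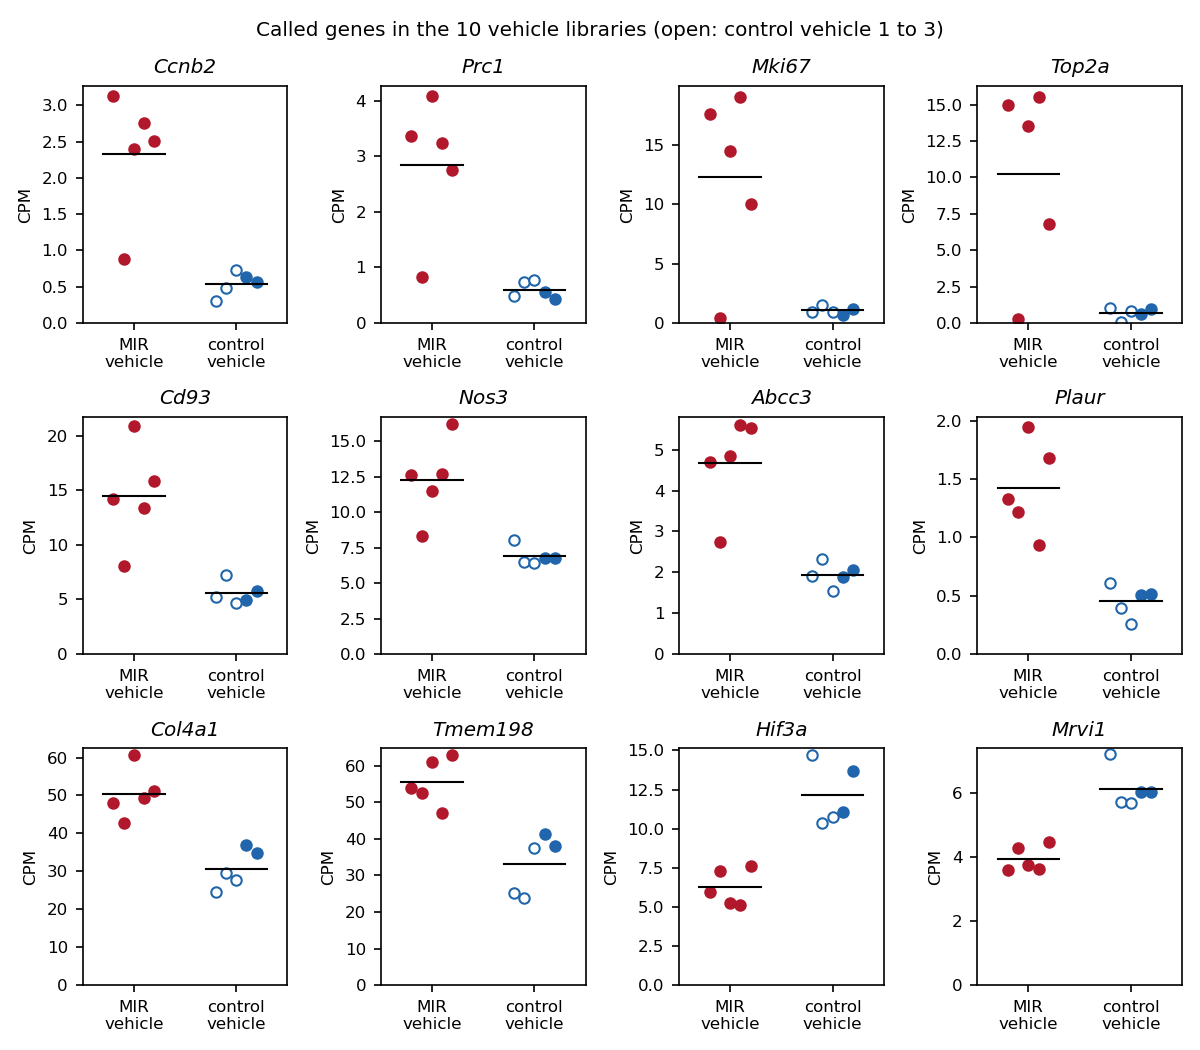
CPM (y axes, from 0) of called genes in each MIR vehicle (red, left) and control vehicle (blue, right) library, with control vehicle 1 to 3 as open circles and the group mean as a line. MIR vehicle 2 lies far below the other MIR vehicle libraries for Mki67 (0.439 CPM) and Top2a (0.293 CPM).

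The defining markers of endothelial cells leaned the same way at smaller size. All 18 had a positive log2 fold change, with a median of 0.38 (0.45 against control vehicle 4 and 5), and 0 were called. Of the 18, 12 were higher at an unadjusted p under 0.05, against 7.40% of all genes tested. All 5 MIR vehicle libraries lay above all controls in 6 of the 18, against 1.61% of all genes tested. The summed level of the 18 was 653, 536, 634, 559.6 and 694 CPM in MIR vehicle libraries, against 542, 519, 425, 444 and 486 CPM in control vehicle libraries, and only MIR vehicle 2 and control vehicle 1 overlapped. Tek, the angiopoietin receptor, had 22.4, 16.8, 20.5, 20.6 and 20.8 CPM in MIR vehicle libraries, against 11.8, 16.5, 13, 13.2 and 13.8 CPM in control vehicle libraries (log2 fold change 0.57 ± 0.12, SE, edgeR adjusted p = 0.0592, or 0.58 against control vehicle 4 and 5). The receptors of vascular endothelial growth factor also separated the groups. Kdr stood at 20.4 to 29.9 CPM in MIR vehicle libraries, against 15.1 to 17.9 CPM in control vehicle libraries, and Flt1 at 115 to 139.8 CPM in MIR vehicle libraries, against 88.9 to 111 CPM in control vehicle libraries. The log2 fold change was 0.60 for Kdr and 0.29 for Flt1, or 0.72 and 0.22 against control vehicle 4 and 5. Cldn5, the claudin that seals endothelial junctions at the blood-brain barrier, had a log2 fold change of 0.61 ± 0.16 (SE, edgeR adjusted p = 0.0852), or 0.77 against control vehicle 4 and 5, and its groups overlapped. Markers of pericytes and smooth muscle had a median of 0.04, or 0.29 against control vehicle 4 and 5, with 0 of 13 called. The part of endothelial cell number in the values of Cd93, Nos3, Abcc3 and Plaur was not tested.

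Col4a1 and Col4a2, which encode the chains of the type IV collagen common to basement membranes, are neighbours read in opposite directions whose annotated starts overlap (chr8:11198423-11312826, minus strand, and chr8:11312805-11449287, plus strand), so reads in the overlap could go to either if strand was not used in counting. Col4a1 had 48.1, 42.7, 60.7, 49.2 and 51.1 CPM in MIR vehicle libraries, against 24.4, 29.5, 27.8, 37 and 34.8 CPM in control vehicle libraries. It rose by a log2 fold change of 0.71 ± 0.14 (SE, edgeR adjusted p = 0.0479), or 0.49 ± 0.17 against control vehicle 4 and 5, below the size needed for a call. Col4a2 had 59.2, 61.5, 76.1, 60.9 and 55.3 CPM in MIR vehicle libraries, against 33.5, 35, 40.5, 43.3 and 46.9 CPM in control vehicle libraries, with a log2 fold change of 0.65 ± 0.13 (SE, edgeR adjusted p = 0.0557), or 0.48 against control vehicle 4 and 5 and 0.35 with covariates for the marker levels of the 3 other regions, which gave 0.41 for Col4a1. Both genes separated the groups, and for both control vehicle 4 and 5 stood closer to the MIR vehicle libraries than control vehicle 1 and 2 did. The basement membrane and matrix list as a whole had a median of -0.18 over its 27 genes, with 5 higher and 7 lower at an unadjusted p under 0.05, and a median of 0.039 against control vehicle 4 and 5. Lama2, a laminin chain, stood at 18.9 to 22.5 CPM in MIR vehicle libraries, against 23 to 30.6 CPM in control vehicle libraries, and the laminin chain Lamb1 had a log2 fold change of -0.86, or -0.30 against control vehicle 4 and 5.

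Immediate early genes, transcribed in neurons soon after they fire, stood lowest in control vehicle 1, 2 and 3, the libraries with striatal, cerebellar and choroid plexus markers. The summed level of 32 such genes was 4796, 2516, 4049, 3060.4 and 4138 CPM in MIR vehicle libraries, against 751, 682, 1585, 3181 and 3378 CPM in control vehicle libraries. The median log2 fold change was 0.96, and 20 of the 32 were higher at an unadjusted p under 0.05, while 0 were called. Against control vehicle 4 and 5 the median was 0.32, with 8 higher and 2 lower, and the sums of the groups overlapped.

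Homer1, a scaffold of the postsynaptic density with an activity-induced short form, had 444, 374, 569, 375 and 540.3 CPM in MIR vehicle libraries, against 147, 78.5, 184, 263 and 252 CPM in control vehicle libraries. Its log2 fold change was 1.32 ± 0.28 (SE, edgeR adjusted p = 0.0557), or 0.84 ± 0.29 against control vehicle 4 and 5. Nptx2, a secreted pentraxin that gathers glutamate receptors at synapses, had 80.01, 47.6, 55.9, 45.2 and 70.03 CPM in MIR vehicle libraries, against 15.1, 8.16, 24.2, 37.2 and 30.7 CPM in control vehicle libraries, and its log2 fold change was 1.37 ± 0.29, or 0.82 ± 0.25 against control vehicle 4 and 5. Both genes separated the groups, with control vehicle 4 and 5 nearest to the MIR vehicle libraries. Inhba, an activin subunit, and Maff, a small basic leucine zipper factor, had log2 fold changes of 1.01 and 1.73, with values of 0.96 and 1.82 against control vehicle 4 and 5.

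Tmem198 (chr1:75479532-75485705, plus strand), a membrane protein linked to Wnt signalling, had 53.9, 52.7, 61.2, 47.2 and 63 CPM in MIR vehicle libraries, against 25.2, 23.8, 37.6, 41.5 and 38.2 CPM in control vehicle libraries. It rose by a log2 fold change of 0.74 ± 0.13 (SE, edgeR adjusted p = 0.0478), or 0.48 ± 0.12 against control vehicle 4 and 5, below the size needed for a call, and the value with the region covariates was 0.38. Vgf, a precursor of neuropeptides, had 265 to 446 CPM in MIR vehicle libraries, against 73.3 to 213 CPM in control vehicle libraries (log2 fold change 1.06, or 0.71 against control vehicle 4 and 5). Grasp, a scaffold of metabotropic glutamate receptors, had 48.1 to 87.1 CPM in MIR vehicle libraries, against 14.1 to 40.9 CPM in control vehicle libraries, and the follistatin-like gene Fstl4 had 32.2 to 62.6 CPM in MIR vehicle libraries, against 21.1 to 30.1 CPM in control vehicle libraries. Grasp had a log2 fold change of 0.99, or 0.70 against control vehicle 4 and 5, and Fstl4 one of 0.82, or 0.67 against control vehicle 4 and 5 and 0.25 with the region covariates. All of these separated the groups.

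Microglial markers leaned upward without a call. Of 20 tested, 19 had a positive log2 fold change, 7 were higher and 0 lower at an unadjusted p under 0.05, and the median was 0.44, or 0.50 against control vehicle 4 and 5. Their summed level was 877, 490.2, 620.5, 685 and 693 CPM in MIR vehicle libraries, against 679, 440.2, 431, 408 and 525 CPM in control vehicle libraries, so the groups overlapped, with MIR vehicle 2 and 3 below control vehicle 1. MIR vehicle 2 was the lowest MIR vehicle library in 15 of the 20, as it was for mitosis, and the part of this microglial level in its mitosis values was not tested. Olfml3, a secreted protein of microglia, had 31.4, 11.6, 21.8, 25 and 21.1 CPM in MIR vehicle libraries, against 13.1, 6.59, 8.58, 7.64 and 10.3 CPM in control vehicle libraries (log2 fold change 1.26 ± 0.28, SE, edgeR adjusted p = 0.0592, or 1.30 against control vehicle 4 and 5). Siglech, a sialic acid binding receptor, separated the groups with 11.5 to 16.6 CPM in MIR vehicle libraries, against 4.5 to 11.2 CPM in control vehicle libraries. Csf1r, the receptor on which microglial survival depends, and C1qc, a chain of complement C1q, had log2 fold changes of 0.65 and 0.66, or 0.69 and 1.11 against control vehicle 4 and 5.

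Of 37 tested genes of cytokine and chemokine signalling, 0 were called and 10 were higher and 2 lower at an unadjusted p under 0.05, with a median of 0.085, or 0.20 against control vehicle 4 and 5. Il10ra, a receptor chain for interleukin 10, separated the groups with 7.36 to 12.6 CPM in MIR vehicle libraries, against 5.26 to 6.97 CPM in control vehicle libraries. Tgfb1, which encodes a transforming growth factor, had a log2 fold change of 0.74 ± 0.19 (SE, edgeR adjusted p = 0.0852, or 0.72 against control vehicle 4 and 5), and Il6st, the shared signalling chain of interleukin 6 family receptors, one of -0.27, or -0.13 against control vehicle 4 and 5.

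The direction of the interferon response list turned with control vehicle 2. Its 35 genes summed to 429.7, 218, 359, 369 and 412 CPM in MIR vehicle libraries, against 242, 1173, 221, 241 and 259 CPM in control vehicle libraries. The median log2 fold change was -0.25 with all libraries, 0.59 without control vehicle 2 and 0.62 against control vehicle 4 and 5, where 33 of the 35 were positive and 9 were higher at an unadjusted p under 0.05. Over all 17313 genes tested, 1168 had such a p against control vehicle 4 and 5, both directions together. With all libraries edgeR called 0 of the 35, and 0 of the 35 had an unadjusted p under 0.05. Ifit1, which binds foreign RNA, had 4.86, 2.58, 2.49, 2.55 and 4.09 CPM in MIR vehicle libraries, against 1.7, 34.8, 1.16, 1.78 and 2.58 CPM in control vehicle libraries, and its log2 fold change was -1.35, or 0.59 against control vehicle 4 and 5. Stat2, a signal transducer of the interferon receptor, stood at 24.3 to 28.7 CPM in MIR vehicle libraries, against 93.2 CPM in control vehicle 2.

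Among the lower genes, Hif3a and Mrvi1 kept a similar size without control vehicle 1 to 3. Hif3a (chr7:17031507-17062427, minus strand), a hypoxia-inducible factor subunit that can restrain other members of its family, had 5.96, 7.31, 5.21, 5.1 and 7.61 CPM in MIR vehicle libraries, against 14.7, 10.4, 10.8, 11.1 and 13.7 CPM in control vehicle libraries. It fell by 0.96 on the log2 scale (SE 0.18, edgeR adjusted p = 0.0479), and the value against control vehicle 4 and 5 was -0.99 ± 0.23. Mrvi1 (chr7:110868266-110982461, minus strand), a substrate of the cyclic GMP dependent kinase that controls calcium release in smooth muscle, had 3.59, 4.29, 3.76, 3.63 and 4.48 CPM in MIR vehicle libraries, against 7.23, 5.72, 5.71, 6.04 and 6.03 CPM in control vehicle libraries. It fell by 0.64 on the log2 scale (SE 0.12, edgeR adjusted p = 0.0479), with -0.61 ± 0.16 against control vehicle 4 and 5. The groups overlapped in neither gene. Arhgef16 (chr4:154278486-154301676, minus strand), a guanine nucleotide exchange factor, was scarce, with 0, 0.0975, 0.136, 0.344 and 0.241 CPM in MIR vehicle libraries, against 2.18, 1.22, 0.944, 0.824 and 0.603 CPM in control vehicle libraries. Its log2 fold change was -2.75 ± 0.52 (SE, edgeR adjusted p = 0.0479), or -2.05 ± 0.60 against control vehicle 4 and 5.

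The hypoxia and glucocorticoid lists, which both hold Hif3a, held no other called gene. Of 23 hypoxia genes, 1 fell and 22 did not pass, with a median of 0.063, or 0.084 against control vehicle 4 and 5, and of 24 glucocorticoid genes, 1 fell and 23 did not pass, with a median of -0.14, or -0.13 against control vehicle 4 and 5. Plin4, a lipid droplet protein, had 5.15, 3.12, 2.67, 9.47 and 7.8 CPM in MIR vehicle libraries, against 32.9, 4.76, 12.3, 14 and 15.4 CPM in control vehicle libraries, with an overlap through control vehicle 2. Cdkn1a, the cell cycle inhibitor p21, had 31.6, 10.3, 30.3, 14.3 and 31.6 CPM in MIR vehicle libraries, against 13.5, 8.34, 7.9, 12.1 and 12.3 CPM in control vehicle libraries (log2 fold change 1.13 ± 0.30, SE, edgeR adjusted p = 0.0931, or 0.95 against control vehicle 4 and 5). Of the separated lower genes that were not called, some kept a similar log2 fold change against control vehicle 4 and 5. These were Clmn, a calponin-like transmembrane protein, with -0.54 and -0.52, Sdc4, a heparan sulfate proteoglycan of the cell surface, with -0.57 and -0.50, and Crabp2, which carries retinoic acid to its nuclear receptor, with -1.13 and -1.03.

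Clic6 and Mab21l1, with the most negative log2 fold changes among the called genes, had smaller values without the control vehicle libraries that carry markers of other regions. Clic6 (chr16:92485736-92541243, plus strand), a chloride channel family gene abundant in choroid plexus, had 0.694, 0.0488, 0.317, 0.933 and 0.241 CPM in MIR vehicle libraries, against 22.2, 4.54, 29.8, 1.88 and 1.72 CPM in control vehicle libraries. Its log2 fold change was -4.75 ± 0.80 (SE, edgeR adjusted p = 0.0457), or -2.01 ± 0.59 against control vehicle 4 and 5, which also lay above all MIR vehicle libraries. Ttr stood at 0 to 2.02 CPM in MIR vehicle libraries, against 7.92 and 12.8 CPM in control vehicle 4 and 5, and the part of choroid plexus RNA in this difference was not tested. Mab21l1 (chr3:55782510-55785001, plus strand), a developmental gene on the list of cerebellar markers, had 0.231, 0.146, 0.272, 0.0982 and 0.433 CPM in MIR vehicle libraries, against 5.1, 26.8, 1.76, 0.686 and 0.56 CPM in control vehicle libraries. Its log2 fold change was -4.85 ± 0.90 (SE, edgeR adjusted p = 0.0479), or -1.37 ± 0.47 against control vehicle 4 and 5. With covariates for the striatum, cerebellum and choroid plexus marker levels the value was -0.46 for Clic6 and -0.36 for Mab21l1. Clic6 is on the choroid plexus list and Mab21l1 on the cerebellum list, so the covariates partly contain their own values. Mab21l1 had -3.08 without control vehicle 2 and -1.99 with limma voom. Igkc, the constant region of immunoglobulin kappa, had 0.174, 0, 0.181, 0 and 0.144 CPM in MIR vehicle libraries, against 0.305, 162, 0.73, 0.824 and 0.775 CPM in control vehicle libraries, so most of its level in the group came from control vehicle 2.

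The other separated lower genes named by rule had smaller values against control vehicle 4 and 5. Vat1l had a log2 fold change of -1.61, or -0.68 against control vehicle 4 and 5, and stood at 204 CPM in control vehicle 1. Shisa8, of a family that modulates glutamate receptors, and Galnt15, a glycosyltransferase gene, stood highest in control vehicle 2 at 23.5 and 50.5 CPM, with log2 fold changes of -2.09 and -2.40, or -1.23 and -1.09 against control vehicle 4 and 5. Stk32a and Tmem255a stood highest in control vehicle 1 at 27 and 51.4 CPM, with log2 fold changes of -2.43 and -1.12, or -0.69 and -0.49 against control vehicle 4 and 5. Mccc2, an enzyme subunit of leucine breakdown, and the zinc finger gene Zfp605 had values of -0.52 and -0.62, or -0.23 and -0.17 against control vehicle 4 and 5.

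Markers of the oligodendrocyte lineage leaned downward. Of 13 markers of oligodendrocyte precursors, 11 had a negative log2 fold change, 4 were lower at an unadjusted p under 0.05 and 0 were called. Their median was -0.40, or -0.29 with 13 negative against control vehicle 4 and 5. The summed level overlapped, with 852, 621, 603, 734 and 461 CPM in MIR vehicle libraries, against 1034, 450.1, 664, 693 and 818 CPM in control vehicle libraries. Vcan, a matrix proteoglycan, C1ql1, a secreted C1q-like protein, and Neu4, a sialidase, had log2 fold changes of -0.43, -0.61 and -0.47, or -0.32, -0.42 and -0.62 against control vehicle 4 and 5. Lhfpl3 stood highest in control vehicle 1 at 56.8 CPM. Markers of mature oligodendrocytes and myelin were negative in 17 of 17, with a median of -0.39, and in 15 with a median of -0.20 against control vehicle 4 and 5. Their sum was 3135 to 6297 CPM in MIR vehicle libraries, against 11059.8 CPM in control vehicle 1 and 2808 to 5431 CPM in the other control vehicle libraries. Without control vehicle 1, which held the highest sum, the medians were -0.072 for the precursors and -0.06 for oligodendrocytes and myelin.

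Haemoglobin transcripts, which come from red cells left in the vessels, overlapped between the groups. Hba-a1, an alpha globin gene, stood at 9.43, 18.6, 9.93, 9.38 and 12 CPM in MIR vehicle libraries, against 8.54, 11.8, 25.1, 16.1 and 52.2 CPM in control vehicle libraries, and the median over 5 red cell genes was -0.61, or -1.17 against control vehicle 4 and 5. Without control vehicle 5 alone it was -0.14. Nes, an intermediate filament gene of neural progenitors and of growing endothelium, had 22.2, 23.9, 22.9, 18.2 and 27.1 CPM in MIR vehicle libraries, against 14.8, 15.8, 11.1, 11.8 and 16.4 CPM in control vehicle libraries. The groups did not overlap, and its log2 fold change was 0.71 ± 0.16 (SE, edgeR adjusted p = 0.0606), or 0.70 against control vehicle 4 and 5. The 17 progenitor and neuroblast genes, Nes among them, had a median of 0.085, or -0.032 against control vehicle 4 and 5.

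Lists that bear on mTOR and on excitability held no called gene. The 46 genes of the mTOR pathway had a median log2 fold change of 0.0083, with 4 higher and 1 lower at an unadjusted p under 0.05, and a median of -0.0048 with 0 in either direction against control vehicle 4 and 5. Of 49 potassium channel genes, 7 were higher and 5 lower without adjustment, with a median of 0.13, or -0.041 against control vehicle 4 and 5. The shares over all genes tested at an unadjusted p under 0.05 were 7.40% higher and 8.92% lower. Kcnh3, a potassium channel of forebrain neurons, separated the groups with 139.6 to 174 CPM in MIR vehicle libraries, against 54.3 to 131 CPM in control vehicle libraries, and its log2 fold change was 0.55 (edgeR adjusted p = 0.114), or 0.31 against control vehicle 4 and 5. The channel genes Kcnd2, Kcnab1 and Kcnv1 had log2 fold changes of -0.38, -0.64 and 0.78, or -0.12, -0.28 and 0.22 against control vehicle 4 and 5. The median was -0.036 over 35 sodium and calcium channel genes, or 0.0051 against control vehicle 4 and 5, and 0.13 over 37 synaptic scaffold and adhesion genes, or -0.026 against control vehicle 4 and 5, so both turned direction. It was -0.074 over 26 GABA synapse genes, or -0.0042 against control vehicle 4 and 5, and -0.14 over 32 glutamate receptor and transporter genes, or -0.10. Cntnap3 and Cntn6, both of the contactin system of neuronal adhesion, had log2 fold changes of -1.03 and -0.76, or -1.01 and -0.61 against control vehicle 4 and 5.

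The rapamycin libraries share no mouse with the vehicle comparison and hold a separate contrast of MIR with control offspring. The paper's supplement lists the same litters for sequencing with and without rapamycin, so the contrasts may share dams. edgeR's quasi-likelihood test called 0 genes in it, 1745 having an unadjusted p under 0.05. The mitosis list had a median log2 fold change of 1.69 there, against 0.0022 over all genes, with 33 of 40 higher and 0 lower at an unadjusted p under 0.05. Mki67 stood at 14.3, 13.9, 22.8, 2.75 and 6.33 CPM in MIR rapamycin 1 to 5, against 1.77, 0.744, 0.835, 1.32 and 0.379 CPM in control rapamycin 1 to 5. Top2a stood at 15.6, 9.97, 17.1, 1.73 and 5.43 CPM in MIR rapamycin libraries, against 0.686, 0.279, 0.352, 0.894 and 0.337 CPM in control rapamycin libraries. The log2 fold changes in this contrast were 3.59 for Mki67 and 4.29 for Top2a. Of the 12 genes called higher under vehicle, 11 had a positive value under rapamycin, and Plaur had -0.46. Of the 5 called lower, 2 had a negative value, Hif3a (-0.33) and Mrvi1 (-0.032). Plaur stood at 1.02, 0.923, 0.625, 0.326 and 0.613 CPM in MIR rapamycin libraries, against 0.857, 1.07, 0.967, 1.08 and 0.842 CPM in control rapamycin libraries.

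For 0 of the 17 called genes did the MIR effect differ between vehicle and rapamycin after adjustment over all genes by edgeR (smallest adjusted p = 0.318). Without the adjustment, 8 of the 17 had a p under 0.05 for this difference, against 2200 of all 17313 genes tested. The 17 were called by the vehicle contrast, which enters this difference, so that count is not independent of the calls. The difference in log2 fold change, vehicle minus rapamycin, was 2.09 ± 0.41 (SE) for Plaur, 0.72 ± 0.19 for Tmem198, -0.63 for Hif3a and -0.60 for Mrvi1, and it was -0.058 for Mki67, -0.053 for Prc1 and 0.31 for Cd93. Endothelial markers had a median of 0.21 under rapamycin with 17 of 18 positive, and immediate early genes one of -0.095. Interferon response genes had a median of 0.99 under rapamycin with 34 of 35 positive. Microglial markers had one of 0.39 with 18 of 20 positive.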

How the data were processed

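RNA of 20 mouse cortex samples in 4 groups of 5 was sequenced as a stranded poly(A) library. The authors aligned reads with STAR 2.4.0 to mm10 and deposited raw counts per gene from HTSeq 0.6.1, and the sources do not give the strand setting. Outlying samples had been removed, without a statement of which. Library totals were 17.8 to 24.5 M counts. Counts were tested with edgeR 4.0.16 (R 4.3.3): TMM scaling, genes kept by filterByExpr (minimum count 10, total 15), 4 group means over all 20 libraries and the quasi-likelihood test. Calls needed a Benjamini-Hochberg adjusted p under 0.05 and an absolute log2 fold change over 0.5. The fit was checked on simulated counts without libraries that carry markers of other regions, so the check does not cover that feature of these data. DESeq2 1.42.0, limma 3.58.1 voom, other filters, scaling and thresholds, region covariates, a replicate block and leaving out libraries were alternatives. Coordinates come from GENCODE M21, which held 48435 of the 48795 IDs. Figures used matplotlib 3.10.9 (Python 3.11.15).

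Genes named were those called, the 15 separated genes of lowest p in each direction (predicted or clone names left out) at 1 CPM or more on average, and up to 4 members of lowest p per list. The comparison and the gene lists were chosen with earlier results of these data known. Columns of the rapamycin groups served the shared spread and the separate contrast.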

Additional observations from a re-analysis of the deposited data

Results flagged for a closer look

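A value was singled out when 1 of the 5 libraries of a group lay far from the other 4 by Dixon's test, and chance alone singles out about 1 in 20 groups. Over 210 groups examined, 28 values were singled out, 15 of them in control vehicle 2 and 9 in control vehicle 1. Their causes were not tested.

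In MIR vehicle libraries, Vat1l stood apart at 43.9 CPM in MIR vehicle 4, Stat2 at 24.3 CPM in MIR vehicle 5 and Hba-a1 at 18.6 CPM in MIR vehicle 2.

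In control vehicle 1, the values that stood apart were 8.01 CPM for Nos3, 7.23 CPM for Mrvi1, 204 CPM for Vat1l, 289 CPM for Kcnab1 and 56.8 CPM for Lhfpl3. Its summed CPM stood apart for GABA synapse genes (8745), neural progenitor and neuroblast genes (281), cortical interneuron markers (2627) and striatum markers (4658).

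In control vehicle 2, single genes that stood apart were Mab21l1 at 26.8 CPM, Igkc at 162 CPM, Crabp2 at 2.62 CPM, Shisa8 at 23.5 CPM, Galnt15 at 50.5 CPM, Ifit1 at 34.8 CPM, Stat2 at 93.2 CPM, Kcnh3 at 54.3 CPM and Cntn6 at 41.2 CPM. Its summed CPM stood apart for the interferon response (1173), cerebellum markers (2903) and DNA replication (228), all high, and for the hypoxia response (1961), the mTOR pathway (3564) and heat shock genes (2704), all low. In control vehicle 3 the choroid plexus sum stood apart at 2101 CPM.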

How the results depend on the processing

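The 17 calls lay just under the threshold, so their number moved with most settings. With edgeR it was 0 without control vehicle 1 to 3 together (1168 genes at an unadjusted p under 0.05), also with the 7 remaining vehicle libraries alone (1559, an alternative chosen after seeing the data), with the 10 vehicle libraries alone (2083) and with covariates for the striatum, cerebellum and choroid plexus levels (890), while 391 genes were called by DESeq2, 419 by edgeR's likelihood ratio test, 7 by its robust quasi-likelihood test, 63 with no filter beyond 1 count, 7 under a minimum mean of 1 CPM and 158 at an adjusted p under 0.10 and a log2 fold change over 1. RLE size factors kept 17 and limma's voom gave 23. Leaving out 1 library at a time gave 0 to 219 calls, with 0 also without MIR rapamycin 1 or 2 or control rapamycin 2, 3, 4 or 5, and 26 without MIR rapamycin 4. Genes whose libraries did not overlap numbered 519, 2645 against control vehicle 4 and 5, and 672 to 969 with 1 library left out. The count of called genes whose MIR effect differed between vehicle and rapamycin after adjustment was 0 in every setting run. The vehicle libraries alone can give no value for it.

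Libraries with the same replicate number in both vehicle groups had correlations of -0.10 to 0.15, and those with different numbers -0.19 to 0.15. Control vehicle 1 to 3 carry markers of other regions, so these values cannot exclude a pairing of mice by number. With the replicate block 0 genes were called by edgeR, and 2569 had an unadjusted p under 0.05.

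The log2 fold change of a single gene reversed direction in 11 cases, 1 case being 1 gene under 1 setting. With the region covariates the log2 fold change was -0.035 for Ccne1, -0.13 for Kcnv1, 0.19 for Lamb1, 0.22 for Stat2, 0.13 for Zfp605 and 0.90 for Ifit1. Without control vehicle 2 it was 0.094 for Stat2 and 0.87 for Ifit1, the upper ends of ranges over libraries left out that began at -0.68 and -1.63. For Ifit1 it was also 0.62 with voom and 0.59 without control vehicle 1 to 3, or 0.59 with the vehicle libraries alone. The list medians of DNA replication, basement membrane and matrix, interferon response, mTOR pathway, neural progenitor and neuroblast genes, potassium channels, sodium and calcium channels, and synaptic scaffold and adhesion also turned direction without control vehicle 1 to 3. So did those of cortical interneuron markers (-0.44, or 0.095 without these libraries) and striatum markers (-2.45, or 0.16). The cause was not tested. Genes near 1 CPM rest on few reads, which limits the precision of Plaur, Arhgef16 and Igkc. The limit also holds for the 6 called mitosis genes in control vehicle libraries, as for Top2a with 0.0873 to 1.002 CPM. It further holds for Clic6 and Mab21l1 in MIR vehicle libraries.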
